A study of Mus musculus with 2 samples.

Results

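The genes described here are 34 mouse genes of glycolysis, of lactate formation and transport, of the pyruvate dehydrogenase step and of the pentose phosphate pathway. They were taken by name, and each gene was read from the probe set with the highest mean of both arrays among those annotated to that gene alone. Of the 34 genes, 30 had such a probe set, among 18193 genes that did. Outside the array controls Gapdh was named only together with pseudogenes, and the expression of Gpi1, Eno1 and G6pdx was not analysed here.

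The samples were B cells of male C57 mice from the Jackson Laboratory, 1 labelled mir155 KO and 1 labelled mir155 WT, each hybridised to 1 array. The series design calls them cultured and activated, whereas the growth protocol describes haematopoietic progenitors kept for 6 days with G-CSF and stem cell factor. Both received cycloheximide, an inhibitor of translation elongation, at 100 ug/ml for 8 min before harvest, so no sample is free of it. The labels do not say how the knockout allele was made, how many mice were used or what activated the cells. With 1 array per label there is no replicate spread, no difference could be tested, and every value below is a single measurement described by its size.

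The microRNA under study, miR-155, acts by pairing its seed with target transcripts and lowering their output. Its main mature strand is shown because it defines the comparison, with the seed (bases 2 to 8) in capitals, as RefSeq gives it for GRCm38.p6 at chr16:84714143-84714165 on the + strand.
mmu-miR-155-5p: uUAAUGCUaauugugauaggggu

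The genotype labels contradict each other. Groups follow the titles and genotype entries, and the source names give the opposite genotype for both arrays. Mir155hg, the host transcript of miR-155, had a log2 intensity of 10.88 on the array titled as knockout and 6.63 on the one titled as wild-type. This order goes against the titles. The gap of 4.25 was the highest difference among all 10717 expressed genes, and 6.63 lies below 6.71, the level for expression used here. Whether the probes read bases that the knockout kept was not tested. The arrays are called the KO-labelled and the WT-labelled array, differences are KO-labelled minus WT-labelled, and every sign turns over if the source names are right. Of 11 measured B cell markers all 11 were expressed, while 3 of 11 markers of neutrophils and their precursors and 0 of 6 stem and progenitor markers were. The sorted values of both arrays differed by at most 0.06, so a difference in total RNA per cell would not show.

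Glycolysis splits glucose into pyruvate in the cytosol. Activated lymphocytes are known to run it fast and to turn much of the pyruvate into lactate, which leaves the cell through monocarboxylate transporters. Pyruvate enters the mitochondrion through the pyruvate dehydrogenase complex, which its kinases switch off, and glucose 6-phosphate can instead enter the pentose phosphate pathway, a source of NADPH and ribose. HIF-1 and MYC are the textbook activators of these genes.

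The set as a whole differed little between the arrays. A gene counted as expressed where its mean log2 intensity reached 6.71, the array-wide median without control probe sets, and 28 of the 30 measured members passed. Of these 28, 17 were lower and 11 higher on the KO-labelled array, which is 60.7% lower, beside 42.1% of all 10717 expressed genes. Their median difference was -0.05, and that of all expressed genes was 0.03. With quantile normalization 20 of 28 members were lower beside 50.6% of all expressed genes, and after subtraction of a loess curve 21 of 28 were lower beside 50.1%.

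Few members differed by much. A difference of -0.25 or below, which is 1.19-fold, was met by 2 members (Slc16a3 and, only just, Hk3) beside 6.40% of expressed genes, and one of 0.25 or above by 1 member (Slc16a1) beside 7.60%. No expressed member was lower by 0.5 or more (1.31% of expressed genes) or higher by as much (0.681%). The SD of the difference was 0.15 over the 28 members and 0.19 over all expressed genes. These shares lie near or below the background in the main setting. With each gene's next highest probe set 3 of 15 members were at -0.25 or below, beside 5.50% of genes, and with plain _at probe sets 3 of 19 beside 6.50%.

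**Figure D1:**
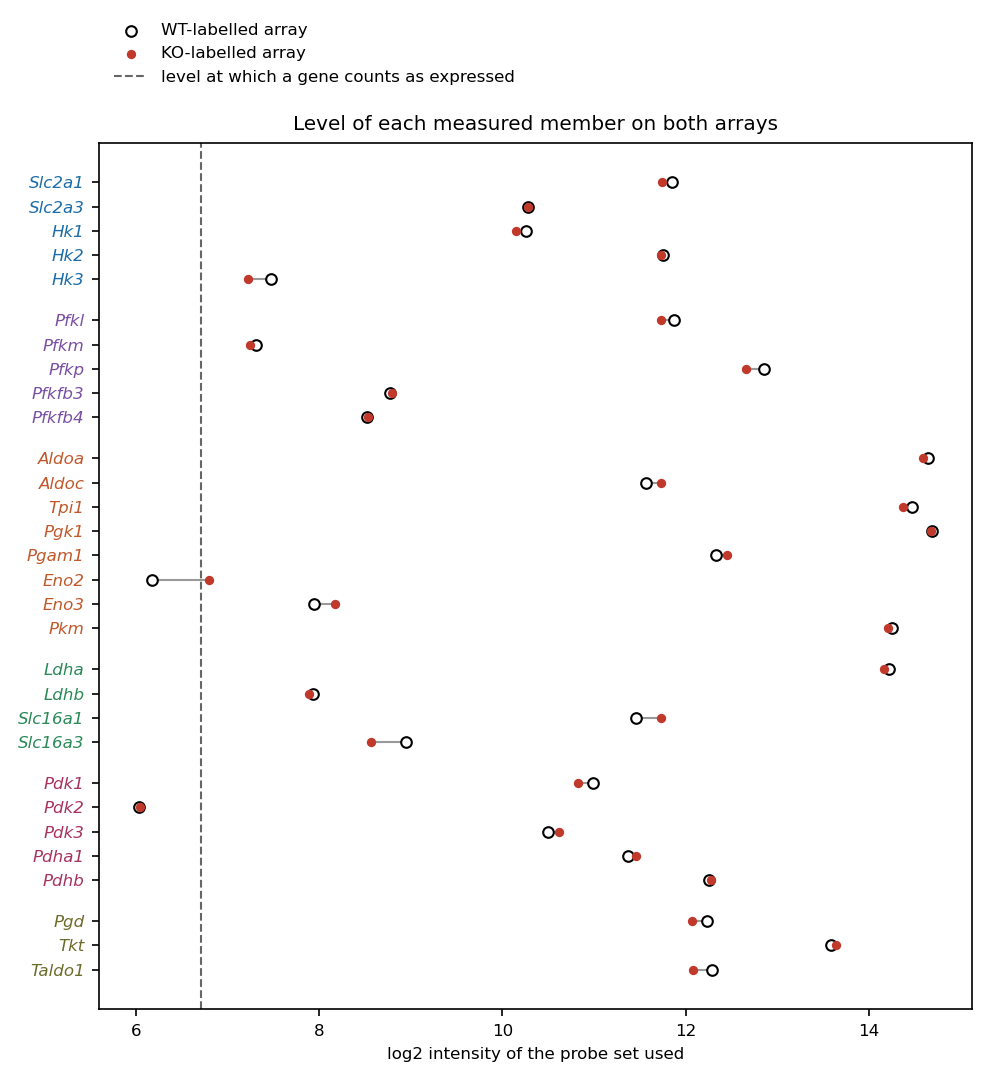
Log2 intensity (x axis) of the probe set used for each of the 30 measured members (y axis, coloured by role), with an open circle for the WT-labelled array, a filled red circle for the KO-labelled array and a dashed line at 6.71. The circles nearly coincide for most genes, Eno2 and Pdk2 lie below the line on average, and levels of different genes come from different probes and have no order.

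The regulatory letters upstream of these genes give context for the activators named above. HIF-1 recognises a core of ACGTG or GCGTG, and MYC and related factors recognise the E-box CACGTG, which itself holds ACGTG. These letters were searched on both strands in RefSeq promoters of GRCm38.p6, from 250 bases before to 50 after each start site. Promoters were found by symbol for 33 of 34 members (48 promoters), all but Slc2a3. The letters ACGTG were in 22 of the 48 promoters (45.8%), beside 25.8% of the promoters of expressed genes and 19.6% of all 32851. GCGTG was in 58.3%, 50.2% and 32.4% of these, and CACGTG in 10.4%, 10.1% and 7.15%. Some members have several overlapping promoters, and the median GC content was 60.8% for members, 60.7% for expressed genes and 52.7% for all promoters.

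The stretches below lie upstream of the start site, on the + strand, and capitals mark any of these 3 motifs, read on either strand. Slc16a3 (chr11:120948987-120949066) and Slc16a1 (chr3:104638454-104638543) are shown because these lactate transporters had the lowest and the highest difference of all expressed members. Ldha (chr7:46845654-46845783) is shown because its promoter held the most matches to ACGTG, 5 over both strands. Each of its 2 CACGTG sites reads the same on both strands and counts once per strand in this number. Pdk1 (chr2:71873124-71873183) and Pgk1 (chrX:106186940-106186999) are shown as HIF-responsive genes whose differences were -0.16 and -0.02.
Slc16a3: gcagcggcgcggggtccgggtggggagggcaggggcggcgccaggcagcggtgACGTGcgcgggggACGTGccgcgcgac
Slc16a1: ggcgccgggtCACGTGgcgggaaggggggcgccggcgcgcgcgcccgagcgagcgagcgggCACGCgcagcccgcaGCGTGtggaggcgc
Ldha: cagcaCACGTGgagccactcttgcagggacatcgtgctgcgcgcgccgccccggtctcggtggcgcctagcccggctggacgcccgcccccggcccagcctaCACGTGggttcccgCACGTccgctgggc
Pdk1: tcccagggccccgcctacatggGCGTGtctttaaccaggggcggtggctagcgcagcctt
Pgk1: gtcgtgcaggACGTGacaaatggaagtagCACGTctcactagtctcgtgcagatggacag

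Members with and without ACGTG overlapped widely in their differences. The 16 expressed members with ACGTG in a promoter had a median difference of -0.04, with 10 lower, and ranged from -0.38 for Slc16a3 to 0.27 for Slc16a1. The 11 without it had a median of -0.10, with 7 lower. The 7 expressed members with a promoter but no GCGTG were all lower by the probe set used, between -0.38 and -0.02 with a median of -0.05. Hk3 and Pgk1 are among them and were higher with their next highest probe set (0.10 and 0.12). Of the 20 with GCGTG 10 were lower. Among all expressed genes 42.1% were lower, and these were not split by motif. A match is only a description of the letters in the window.

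Genes of glucose entry and phosphorylation were lower or level on the KO-labelled array. Slc2a1, the main glucose transporter GLUT1 of activated lymphocytes, had log2 intensities of 11.74 on the KO-labelled array and 11.85 on the WT-labelled array. Its difference was -0.11, and its 3 expressed probe sets differed by -0.17 to -0.11. Slc2a3, the high-affinity transporter GLUT3, was level at 10.28 on both arrays, with a difference of 0.00 and other expressed probe sets down to -0.10. Thus the transporters differed by amounts of the size at which probe sets of one gene disagree: the gap between the 2 brightest expressed probe sets had a median of 0.08 over 4906 genes and a 95th percentile of 0.31.

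The hexokinases trap glucose in the cell as glucose 6-phosphate. Hk1, the broadly expressed form, had levels of 10.15 (KO-labelled) and 10.26 (WT-labelled), and both its expressed probe sets were lower, by differences of -0.16 and -0.11. Hk2, the form induced by growth signals, was nearly level at 11.73 and 11.76, a difference of -0.03. Hk3, a form found mainly in myeloid cells, had levels of 7.22 and 7.47 and a difference of -0.25. Its second expressed probe set gave 0.10, so the direction of Hk3 depended on the probe set, and both sets lay near the level for expression. Of the 5 expressed genes of this step 4 were lower, with a median of -0.11, and all 5 were lower with quantile normalization or the loess subtraction.

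Phosphofructokinase commits the sugar to glycolysis. Pfkp, its platelet-type form, had levels of 12.66 on the KO-labelled array and 12.86 on the WT-labelled array. Its difference was -0.20, yet its 3 expressed probe sets ran from -0.27 to 0.18. Pfkl, the liver-type form, had levels of 11.73 and 11.88 and a difference of -0.15, with 0.00 from its dimmest expressed probe set. Pfkm, the muscle-type form, stood at 7.24 and 7.31, a difference of -0.07. So each of the 3 isozyme genes was lower by its brightest probe set, and in Pfkp a dimmer set pointed the other way.

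The bifunctional enzymes encoded by Pfkfb3 and Pfkfb4 make and break fructose 2,6-bisphosphate, an activator of phosphofructokinase. Pfkfb3 had levels of 8.80 (KO-labelled) and 8.78 (WT-labelled), a difference of 0.02, while its second expressed probe set differed by -0.27. Pfkfb4 had levels of 8.53 and 8.52, a difference of 0.02. Neither activator gene therefore differed in a way that held across probe sets or scalings, since both turned below 0 with quantile normalization.

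**Figure D2:**
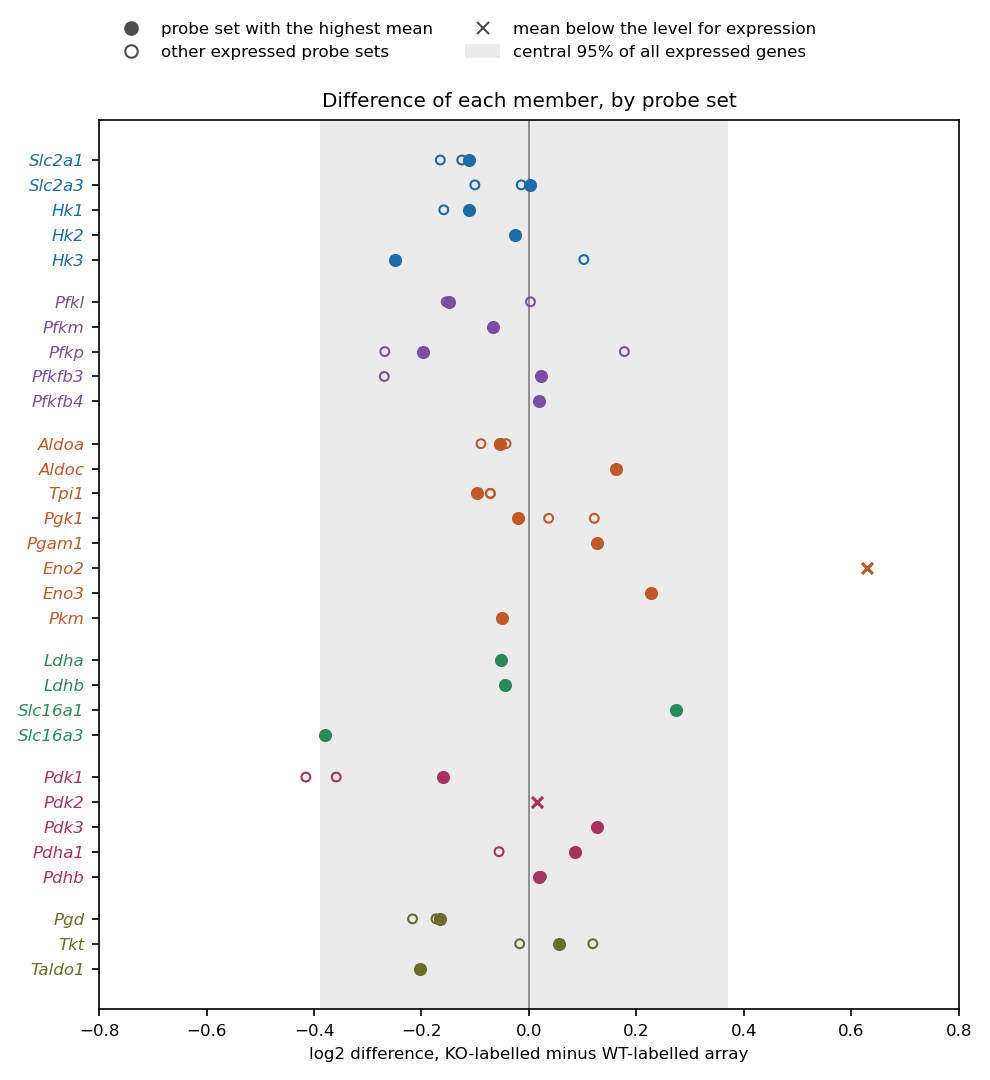
Log2 difference (x axis, KO-labelled minus WT-labelled array) of each measured member (y axis, coloured by role), with filled circles for the probe set used, open circles for other expressed probe sets, crosses where the mean lay below 6.71, and grey for the central 95% of all expressed genes (-0.39 to 0.37). All filled circles lie inside the grey band, Slc16a3 at -0.38 closest to its edge. An open circle of Pdk1 at -0.42 and the cross of Eno2 at 0.63 lie outside.

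Genes of the lower part of glycolysis were close to level in most cases. Aldoa, the aldolase that splits the 6-carbon sugar, had levels of 14.60 on the KO-labelled array and 14.65 on the WT-labelled array. All its 5 expressed probe sets were lower, by differences between -0.09 and -0.04. Tpi1, which interconverts the resulting trioses, had levels of 14.38 and 14.47, a difference of -0.10, and its 3 probe sets ran from -0.10 to -0.07. Both genes were thus lower in every probe set, by 1.04-fold and 1.07-fold in the set used.

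Among the next steps the differences went both ways. Pgk1, the first ATP-forming enzyme of the pathway, was at 14.67 on the KO-labelled array and 14.69 on the WT-labelled array, a difference of -0.02, and its other probe sets reached 0.12. Pgam1, the mutase of the following step, was at 12.46 and 12.33, a difference of 0.13. Pkm, the pyruvate kinase gene of most proliferating cells, was at 14.21 and 14.26, a difference of -0.05. At mean levels of 13 or above the SD of the difference was 0.10 over 357 expressed genes, beside 0.21 over the 3759 genes between 8 and 10, so small differences of the bright members sat within a narrow spread. Whether the brightest probe sets were close to saturation was not tested.

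The less typical isozymes of these steps among the members, Aldoc, Eno3 and Eno2, were higher by the probe set used. Aldoc, the brain-type aldolase, had levels of 11.74 (KO-labelled) and 11.57 (WT-labelled), a difference of 0.16. Its second probe set, below the level for expression, gave -0.13, and the mean of both sets gave 0.02. Eno3, the muscle-type enolase, had levels of 8.17 and 7.95, a difference of 0.23, at percentile 90.4 of expressed genes. Eno2, the neuronal enolase, had levels of 6.80 and 6.17, a difference of 0.63. Eno2 crossed the level for expression and its mean lay below it, so it was left out of the counts, and its higher reading is only just above that level. Of the 7 expressed genes of lower glycolysis 4 were lower, and the median of -0.02 turned to 0.00 with quantile normalization and to 0.02 with the mean of each gene's probe sets.

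The lactate genes held both extremes of the set. Ldha, which encodes the lactate dehydrogenase subunit that favours lactate formation, was at 14.17 on the KO-labelled array and 14.22 on the WT-labelled array, a difference of -0.05. Ldhb, the subunit that favours the reverse reaction, was at 7.88 and 7.93, a difference of -0.04. Both subunit genes were therefore close to level, by similar amounts.

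The monocarboxylate transporters went opposite ways. Slc16a1, which encodes MCT1, a high-affinity transporter and known MYC target, had levels of 11.73 on the KO-labelled array and 11.46 on the WT-labelled array. Its difference was 0.27, a 1.21-fold higher level, at percentile 94.0 of expressed genes, and it was 0.249 with quantile normalization. Slc16a3, which encodes MCT4, the exporter of highly glycolytic cells and a known HIF-1 target, had levels of 8.56 and 8.94. Its difference was -0.38, a 1.30-fold lower level, at percentile 2.68, and it lay between -0.44 and -0.38 under the alternatives that gave a value. The gap between the transporters was 0.65, the widest of the 9 isozyme or subunit families compared, and each rested on 1 expressed probe set.

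At the entry to the mitochondrion the kinase genes also differed in direction. Pdk1, a HIF-1-induced kinase that switches off pyruvate dehydrogenase, had levels of 10.83 on the KO-labelled array and 10.99 on the WT-labelled array. Its difference was -0.16, and its other expressed probe sets gave -0.36 and -0.42, so all 3 were lower and the brightest gave the smallest size. Pdk3, a second such kinase, had levels of 10.62 and 10.50, a difference of 0.13. Pdk2 lay below the level for expression on both arrays, at 6.05 and 6.03.

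The target of these kinases was close to level. Pdha1, the catalytic subunit that the kinases phosphorylate, had levels of 11.45 (KO-labelled) and 11.37 (WT-labelled), a difference of 0.09, with -0.06 from its second probe set. Pdhb, its partner subunit, had levels of 12.28 and 12.26, a difference of 0.02. Of the 4 expressed genes of this step 1 was lower and 3 higher, with a median of 0.05, and with quantile normalization or the loess subtraction 2 were lower and 2 higher.

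In the pentose phosphate pathway an enzyme of the oxidative arm and one of the other arm were lower. Pgd, which makes NADPH and ribulose 5-phosphate, had levels of 12.07 on the KO-labelled array and 12.24 on the WT-labelled array. All its 4 probe sets were lower, by differences between -0.22 and -0.17. Taldo1, the transaldolase of the non-oxidative arm, had levels of 12.08 and 12.29, a difference of -0.20 from its single probe set. Tkt, the transketolase that works beside it, had levels of 13.65 and 13.59, a difference of 0.06, with probe sets from -0.02 to 0.12. Pgd was lower in more expressed probe sets than any other member but Aldoa, and its difference stayed between -0.22 and -0.17 under every alternative that gave a value.

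Across all members, 15 had several expressed probe sets. These all read lower in 6 genes (Slc2a1, Hk1, Aldoa, Tpi1, Pdk1 and Pgd), all higher in 1 (Pdhb) and in both directions in 8. Over the 56 expressed probe sets 38 were lower and 18 higher, though sets of one gene share their transcript. Such counts were not made over all genes, so they have no background beside them. With 1 probe set per gene, 42.1% of expressed genes were lower by the brightest set and 38.1% by the next highest.

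**Figure D3:**
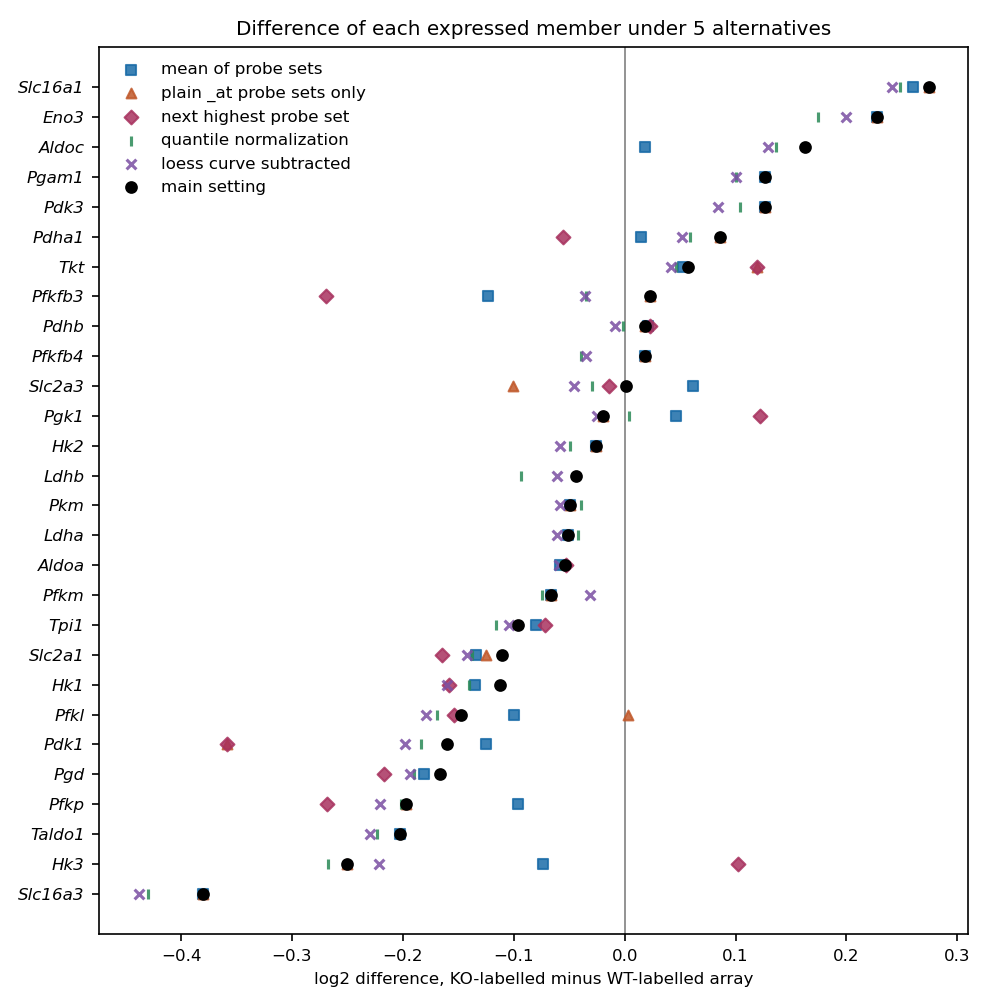
Log2 difference (x axis, KO-labelled minus WT-labelled array) of each of the 28 expressed members (y axis, sorted) in the main setting (black) and under 5 alternatives. Most points of a gene lie close together, while Hk3 moved from -0.25 to 0.10 with its next highest probe set and Pfkfb3 from 0.02 to -0.27.

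The other genes of these pathways were split in direction. Of 28 expressed genes out of 38 listed, 12 were lower and 15 higher, with a median of 0.01. The highest were Pdp1 (0.36), a phosphatase that switches pyruvate dehydrogenase on, and Bpgm (0.29), which makes 2,3-bisphosphoglycerate. The lowest were Pgam2 (-0.32), a muscle mutase near the level for expression, and Pdhx (-0.31), a binding component of the pyruvate dehydrogenase complex. With quantile normalization the count was 15 lower and 13 higher.

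Genes of the tricarboxylic acid cycle, which burns the acetyl groups that pyruvate dehydrogenase makes, leaned the other way. Of 19 expressed genes 17 were higher and 2 lower, with a median of 0.08, so 10.5% were lower beside 42.1% of all expressed genes. With quantile normalization or the loess subtraction 14 were higher. The lowest were Sdhb (-0.07) and Idh3g (-0.01). The highest were Aco1 (0.37), the cytosolic aconitase, and Idh1 (0.36), the cytosolic isocitrate dehydrogenase. Both, and the cytosolic malate dehydrogenase gene Mdh1 (0.09), are counted in this list although the cycle itself runs in the mitochondrion. The medians of the 2 lists, -0.05 for the glycolytic set and 0.08 for the cycle, could not be tested against each other with 1 array per label.

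Among HIF-responsive genes outside glycolysis lower values prevailed. Of 19 expressed genes 13 were lower (68.4%, beside 42.1% of all expressed genes), with a median of -0.13, and 8 had a difference of -0.25 or below, beside 6.40%. The lowest were Anxa2 (-0.90), a calcium-binding membrane protein, and Egln3 (-0.77), a prolyl hydroxylase that marks HIF for destruction, and the highest were Ankrd37 (0.43) and Stc2 (0.31).

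Regulators of glycolytic genes were split in direction, and those with larger differences were mostly lower. Of 17 expressed genes 8 were lower (47.1%, beside 42.1% of all expressed genes) and 9 higher, with a median of 0.00. A difference of -0.25 or below was met by 6, beside 6.40% of expressed genes, and one of 0.25 or above by 1, beside 7.60%. After the loess subtraction 11 of 17 were lower, beside 50.1% of expressed genes. With the next highest probe set 8 of 10 were lower, beside 38.1%, with a median of -0.22. The lowest were Egln3 and the GTPase gene Rheb (-0.67), and the highest were Prkaa1 (0.32), a catalytic subunit of AMP-activated kinase, and Myc (0.17). Hif1a, named after its value was seen, had levels of 12.34 on the KO-labelled array and 12.69 on the WT-labelled array, a difference of -0.35. Egln1, Egln3 and Mxi1 stand in both this list and the HIF-responsive list.

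**Figure D4:**
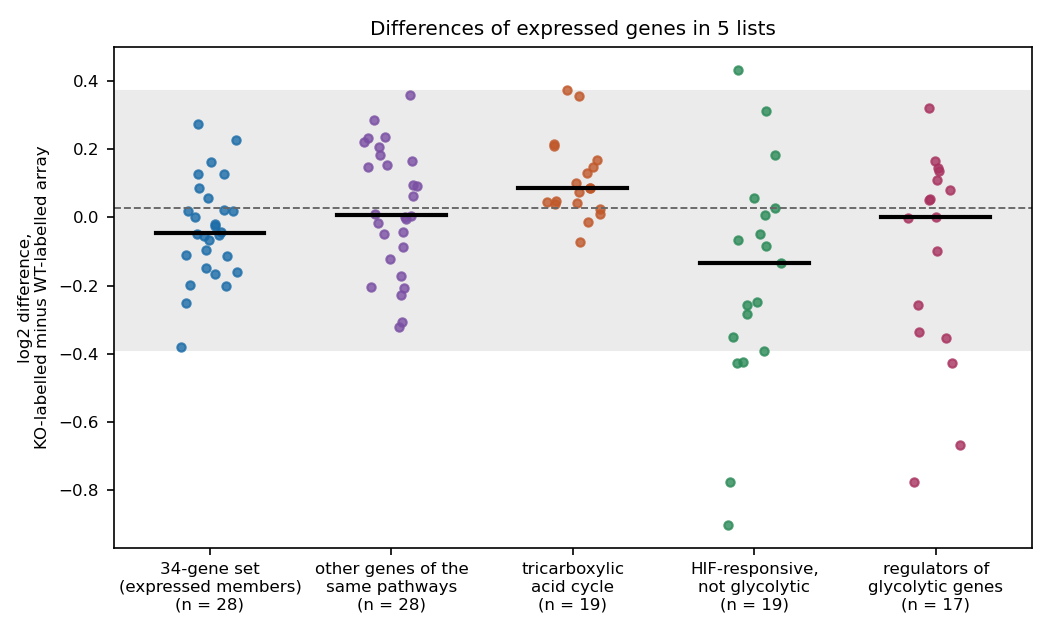
Log2 difference (y axis, KO-labelled minus WT-labelled array) of each expressed gene (points, spread sideways at random) in the 34-gene set and 4 related lists, with a bar at each median, a dashed line at the median of all expressed genes (0.03) and grey for their central 95%. The glycolytic set sits just below the dashed line (-0.05), the tricarboxylic acid cycle above it (0.08) and the HIF-responsive list lowest (-0.13).

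Markers of cell types also differed between the arrays. Of all 10717 expressed genes 6099 were higher on the KO-labelled array and 42.1% lower. Of the 11 B cell markers 10 were higher on the KO-labelled array (median 0.18), and their mean log2 level was 11.66 there and 11.47 on the other array. Of 12 measured markers of macrophages and monocytes 8 were expressed and 6 of these lower, with a median of -0.22, and the mean level over all 12 was 6.43 and 6.64. Most of these 8 had mean levels below 8, where 56.3% of all expressed genes were lower. With the filter set at the 75th percentile 1 was left. Itgam, Mrc1, Cd163 and Marco lay below the level for expression on both arrays. Of 7 measured dendritic cell markers 4 were expressed and 3 of these lower. Of 7 measured T cell markers 6 were expressed, 4 of them higher, and of 6 erythroid and platelet markers 2 were. The part of these cells in the lower readings of Hk3, Slc16a3 or other members was not tested, and in RNA from a mixed culture fewer cells of a type and less RNA per cell cannot be told apart.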

How the data were processed

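The deposited table holds log2 intensities of 45101 Affymetrix probe sets (3.09 to 15.4) on 2 arrays, prepared with the 3′ IVT Express kit per the labels' protocols. The unit was read from the values, and how probe sets were summarised or normalized is not given in the sources used here. Precision is limited by the number of arrays. Probe sets were named from the platform annotation: 34945 had 1 gene, and 34741 of these matched a RefSeq gene of GRCm38.p6 by Entrez number.

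Each gene took its brightest singly named probe set. Genes with a mean of 6.71 or more counted as expressed, and differences of 0.25 and 0.5 were used as limits. No p-value was computed. Members and lists were chosen with earlier results of these data known. All members are named, and of other lists the 2 highest and 2 lowest expressed genes. Hif1a and the printed promoter stretches were chosen after values were seen. The 7 alternatives changed the probe set, the normalization (loess span 0.3) or the filter, and pseudocounts did not apply to log2 values. Scripts were tested on simulated data. The work used matplotlib 3.10.9, statsmodels 0.14.6, NumPy 2.4.6 and pandas 2.3.3 under Python 3.11.15.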

Additional observations from a re-analysis of the deposited data

How the results depend on the processing

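The median of the expressed members kept its sign and lay between -0.07 and -0.02 under all 7 alternatives, beside a median of all expressed genes between 0.00 and 0.04. The number of lower members was 10 of 19 with plain _at probe sets, beside 41.7% of all expressed genes. With the next highest probe set it was 11 of 15, beside 38.1%. Fewer members had a value in both settings. Members at -0.25 or below are given with the share of all genes in brackets. They numbered 1 with the mean of probe sets (5.36%) and 1 after the loess subtraction (6.92%). Plain _at probe sets gave 3 of 19 (6.50%), the next highest probe set 3 of 15 (5.50%) and the filter at the 75th percentile 0 (5.04%). Members at 0.25 or above numbered 0 with the next highest probe set (10.7%), 0 with quantile normalization (5.53%) and 0 after the loess subtraction (6.05%). Without a filter they numbered 2 (6.63%), and Eno2 was the 1 member past 0.5. Hk3 turned to 0.10 with its next highest probe set. Of the 28 members 14 were lower and 6 higher in every setting that gave a value, and 8 turned direction in at least 1. The filter settings leave a member's value unchanged, and a member with 1 probe set could turn only with a normalization. This count is therefore no measure of stability for such members. Pfkp and Tkt kept their direction in it although an expressed probe set of each went the other way (0.18 and -0.02). No paired analysis was possible because each label has 1 array.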

Other observations

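Gapdh, the glycolytic dehydrogenase often used as a reference gene, was read only by probe sets that also name its pseudogenes and by array controls. The brightest of these, annotated to 5 genes, had log2 intensities of 15.01 on the KO-labelled array and 15.02 on the WT-labelled array, a difference of -0.01. The 3 control probe sets for Gapdh differed by 0.01 to 0.02. Of the dimmer sets annotated to 2 genes, the brighter differed by 0.01 and the other by -0.24. Hk1 was also named on a probe set with 5 other genes, mostly ribosomal protein pseudogenes, which differed by 0.05 while the 2 sets of Hk1 alone were lower.

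The share of lower members varied with brightness, as did that of all genes, though each group held few members. All 3 members with a mean level below 8 were lower, while 1 of 4 between 8 and 10 was. Lower members were 5 of 10 between 10 and 12, 3 of 5 between 12 and 13, and 5 of 6 at 13 or above. Among all expressed genes 56.3% were lower below a level of 8 and 35.1% between 8 and 10. This share was 37.5% between 10 and 12, 42.4% between 12 and 13, and 41.2% at 13 or above.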
